A study of Patiria miniata with 18 samples.

Results

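The spliceosome and the proteins that guide it were followed in bat star (Patiria miniata) larvae cut into an anterior and a posterior fragment. The genes were taken by name: every locus whose assigned name began with Sf3, Prpf, Snrp, Srsf, Sfrs, U2af, Hnrnp, Lsm plus a digit or Rbm plus a digit was a member. This gave 130 loci under 61 names, of 31798 loci in the annotated table, 14622 of which carried a gene name. All 130 passed the filter on low counts, and no locus was named U2af. The libraries came from pools of approximately 300 sibling larvae, cut through the foregut midway along the anterior-posterior axis at 7 days post-fertilization. The 9 groups were anterior fragments, posterior fragments and uncut sibling control larvae, each collected approximately 3 h after the cut (labelled 0 days post bisection, dpb), at 3 dpb and at 6 dpb, with 2 biological replicates a group and 18 libraries in all. The labels name no genotype or strain.

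The spliceosome removes introns from pre-mRNA and is built anew on each intron from small nuclear ribonucleoproteins (snRNPs). The U1 snRNP marks the donor site and the U2 snRNP the branch point, after which a particle of U4, U6 and U5 joins, rearranges and catalyses the reaction. Around this core, serine/arginine-rich (SR) proteins and hnRNP proteins bind the transcript and influence which splice sites are used. In larval tissues every cell that splices its transcripts needs the core, whereas some of the regulators are known from other animals to be restricted to particular tissues.

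By role, the members were 18 Snrp loci under 8 names (protein parts of the snRNPs, including the Sm proteins SnrpB, SnrpD1, SnrpE, SnrpF and SnrpG), 18 Sf3 loci under 9 names (the SF3A and SF3B parts of the U2 snRNP) and 22 Prpf loci under 10 names (parts of the U4/U6 and U5 particles and factors of single steps). There were 6 loci of Lsm3, Lsm6 and Lsm7, which are subunits of the ring that holds U6 RNA and also take part in mRNA decay. They are called the U6 ring below, though they are only a part of it and no other subunit was a member. A further 6 were loci of Lsm12L, Lsm14A and Lsm16, of which Lsm14A and Lsm16 act in translational repression and decapping. The families that hold the regulators were 27 SR loci under 11 names, 5 Hnrnp loci under 3 names and 20 Rbm loci under 10 names. These families go by name, so Rbm8A, an exon junction protein, and Sfrs17a, the AKAP17A of human cells, stand among them. The other 8 Rbm loci (Rbm13, Rbm19, Rbm28 and Rbm34L) share a protein fold with the regulators but are known from yeast or human cells as nucleolar proteins, 3 of them with roles in ribosome assembly. Of the 130 loci, 108 shared their name with at least 1 other locus and 29 overlapped another locus, which was 22.3% against 13.9% of the other named loci. No member sequence was available in the files used here, so none is printed.

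Each library held 15868104 to 36152675 counts on loci, and 2.37 to 3.65% of its uniquely placed reads fell on no locus and 6.12 to 8.74% on several. The members took 0.228 to 0.543% of a library's counts, with a median of 0.355%. Levels below are CPM, locus counts scaled to a common library total, with trimmed mean of M-values (TMM) factors. A change is a log2 fold change from edgeR's quasi-likelihood test fitted to all 31798 loci, given with its standard error, and a called locus is one whose p, adjusted by the Benjamini-Hochberg method over all of them, fell under 0.05. Groups had 2 pools each, so a pool of larvae is the replicate and not a larva. In whole fragments, fewer cells of a type and less RNA per cell cannot be told apart. By median, posterior marker genes matched the fragment labels, though not at every locus. Over 10 loci under 5 names, the median log2 fold change at 0, 3 and 6 dpb was -2.67, -3.81 and -2.42 for the anterior pieces and 0.69, 0.52 and 0.75 for the posterior ones. At these times 2, 0 and 2 of the 10 lay above 0 in anterior pieces, and 1, 2 and 3 below 0 in posterior ones. The list of anterior markers matched no locus.

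Per kilobase of exon, mean levels over the 18 libraries ran from 0.820 CPM (an Rbm28 locus) to 75.4 CPM (Rbm8A, the exon junction protein Y14 of other animals). Next stood a Sfrs7l locus at 49.5, a Sfrs6 locus at 45.1, Hnrnpk at 43.9, Sf3B1 at 36.3 and SnrpG at 36.2 CPM per kilobase. A Prpf39 locus (XLOC_078747) is left out of this order, since its replicates lay too far apart for a mean. Not scaled by length, Sf3B1, the subunit of SF3B that holds the branch point, had the highest mean level, 306.9 CPM.

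In anterior fragments at 0 dpb, 6 of the 130 loci were called, all lower than in controls: Rbm17L, both loci of Prpf18, a locus of Prpf4, Sfrs17a and a locus of Lsm7. Over all loci 7.07% were called in this comparison and 4.76% were called lower, so the members' share was near the background. The log2 fold changes of the 6 ran from -1.69 (Rbm17L) to -1.23 (Lsm7), and none of the 6 was called against control at 3 or 6 dpb, in either fragment.

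Rbm17L (XLOC_050231, scaffold 4417 of the P. miniata v1.0 assembly, bases 227 to 5067, plus strand) is named for Rbm17, known in human cells as SPF45, a factor in the choice of alternative acceptor sites. At 0 dpb its level was 4.64 and 2.80 CPM in the control replicates, 1.56 and 0.768 in anterior and 2.21 and 0.782 in posterior fragments. Every fragment library lay below both control libraries, and the log2 fold change was -1.69 ± 0.33 in anterior fragments (SE, n = 2 against 2, adjusted p = 0.0111) and -1.36 ± 0.32 in posterior fragments (adjusted p = 0.158), in edgeR's quasi-likelihood test. At 6 dpb the order had turned, with 4.07 and 3.23 CPM in controls, 5.91 and 4.10 in anterior and 6.23 and 4.03 in posterior fragments, and no call was made. A neighbouring locus of the same name on the other strand (XLOC_050234, scaffold 4417, bases 5375 to 19468, minus strand) read 7.33 and 6.39 CPM in controls, 3.97 and 1.84 in anterior and 3.50 and 2.26 in posterior fragments at 0 dpb. It too had no fragment library above a control library, and its anterior change of -1.27 ± 0.39 missed the threshold (edgeR adjusted p = 0.0729). Both loci were assigned the same predicted gene although they lie on opposite strands, with 4 exons at XLOC_050231 and 13 at XLOC_050234. Which of them holds Rbm17L is therefore uncertain.

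Prpf18, a factor known from yeast and human cells to act at the second catalytic step, was present as loci on 2 scaffolds, and both were called lower in anterior fragments at 0 dpb. The locus on scaffold 11815 (XLOC_006821, bases 24 to 7759, minus strand) had 5.01 and 5.95 CPM in controls against 1.76 and 2.38 in anterior fragments, a change of -1.41 ± 0.32 (edgeR adjusted p = 0.0244), with 3.26 and 3.82 in posterior fragments. The locus on scaffold 6422 (XLOC_063309, bases 30410 to 39706, minus strand) had 11.6 and 13.1 CPM in controls against 3.32 and 7.06 in anterior fragments, a change of -1.31 ± 0.33 (edgeR adjusted p = 0.0386), with 5.52 and 6.43 in posterior fragments. In both loci all 4 fragment libraries lay below both controls, the anterior mean below the posterior mean. At 3 and 6 dpb fragment and control libraries of both loci overlapped.

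Prpf4 is part of the U4/U6 particle, as are Prpf3 and Prpf31. Its called locus (XLOC_039492, scaffold 3013, bases 33336 to 49794, minus strand) had 7.27 and 4.08 CPM in controls and 4.04 and 1.15 in anterior fragments at 0 dpb, and 4.71 and 1.22 in posterior fragments. Replicate 1 stood above replicate 2 in each group, so the fall was seen within each replicate number while the groups overlapped in the posterior comparison (anterior change -1.33 ± 0.35, edgeR adjusted p = 0.0428). A further locus (XLOC_075732, scaffold 8896, bases 2900 to 15924, minus strand) had 4.76 and 5.50 CPM in controls, 2.28 and 2.00 in anterior and 2.45 and 1.82 in posterior fragments, with no overlap, but its anterior change of -1.29 ± 0.43 was not called (edgeR adjusted p = 0.0959). The loci of Prpf31 gave -1.24 and -0.90 and that of Prpf3 -0.26 in anterior fragments, none called in the main fit.

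Sfrs17a (XLOC_069314, scaffold 7455, bases 3430 to 21657, plus strand) carries an older name of AKAP17A, which in human cells anchors protein kinase A and influences splice-site choice. Its replicates lay close together, with 15.7 and 15.8 CPM in controls, 5.86 and 6.45 in anterior and 7.68 and 9.21 in posterior fragments at 0 dpb. The anterior change was -1.35 ± 0.31 (edgeR adjusted p = 0.0254) and the posterior change -0.90 ± 0.31 (adjusted p = 0.314). At 6 dpb it read 16.0 and 16.4 CPM in controls and 17.9 and 19.3 in posterior fragments, and its changes were 0.11 ± 0.30 in anterior and 0.20 ± 0.30 in posterior fragments. Lsm7 (XLOC_070980, scaffold 7828, bases 2339 to 18535, minus strand) overlapped the locus of C12orf4, so some of its reads may belong to that gene. It had 20.3 and 10.1 CPM in controls, 10.4 and 3.46 in anterior and 12.7 and 6.95 in posterior fragments, and an anterior change of -1.23 ± 0.33 (edgeR adjusted p = 0.0485). The fall was seen within each replicate number, but both fragment groups overlapped the controls. The other Lsm7 locus (XLOC_011072) gave -0.89 in anterior fragments and was not called.

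**Figure D1:**
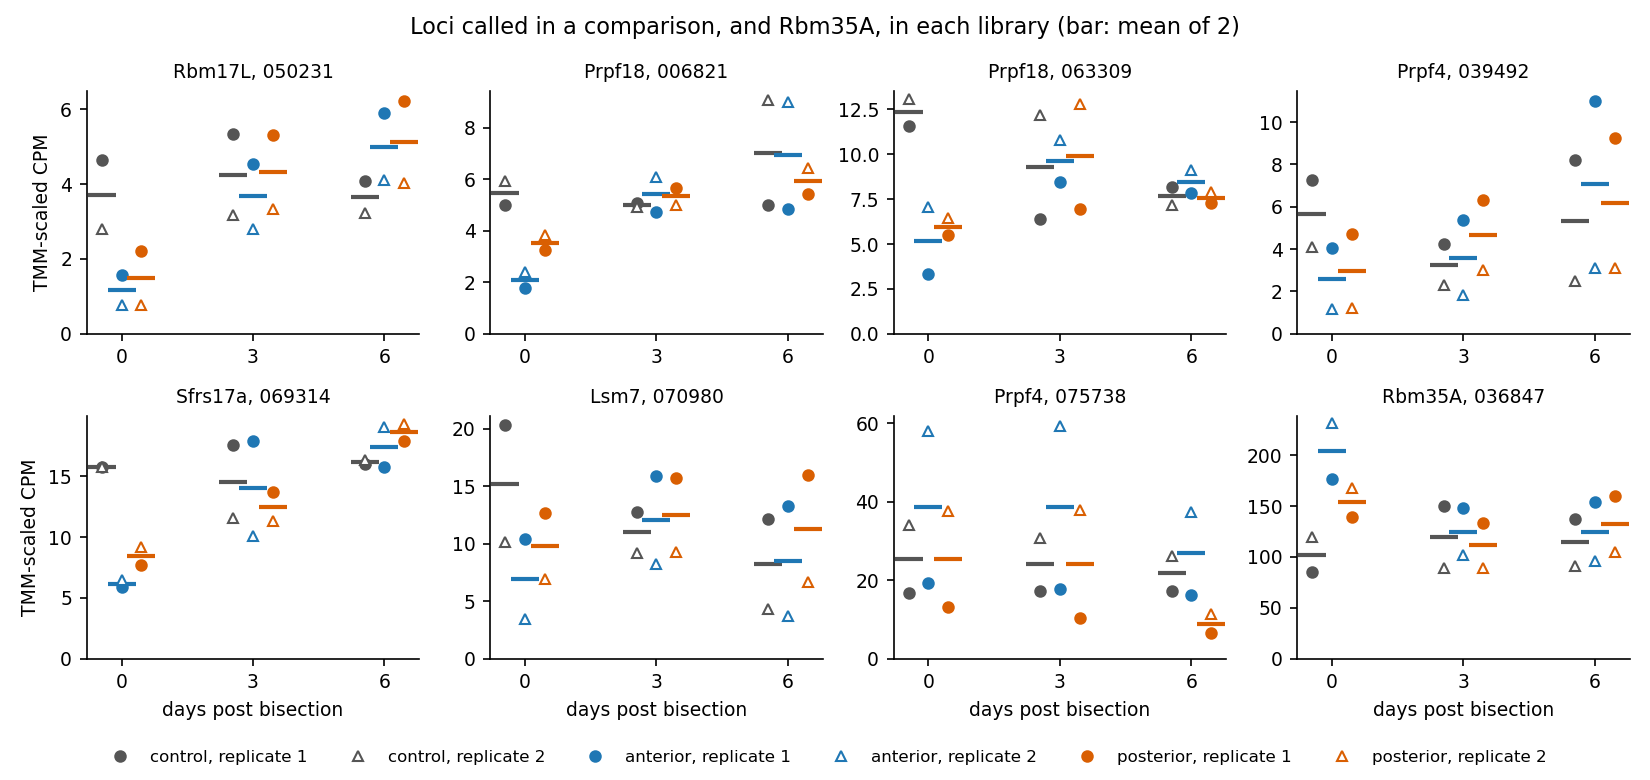
Each panel plots the TMM-scaled CPM of a locus in all 18 libraries (axis from 0) against days post bisection, with filled circles for replicate 1, open triangles for replicate 2 and a bar for their mean, in grey for controls, blue for anterior and orange for posterior fragments. At 0 dpb the anterior means of Rbm17L, both Prpf18 loci, Prpf4 XLOC_039492, Sfrs17a and Lsm7 lie below control (log2 fold changes -1.69 to -1.23), Rbm35A lies above it, and Prpf4 XLOC_075738 falls in posterior fragments at 6 dpb (6.50 and 11.4 CPM).

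The 6 falls were seen in both replicates. Leaving out control replicate 1, control replicate 2, anterior replicate 1 or anterior replicate 2 at 0 dpb left 2, 0, 1 and 0 calls, in fits where the lone library of a group is assumed to vary like the other groups, while the log2 fold changes of the 6 loci stayed between -1.87 and -0.96. No locus was called without the replicate number as a term. When each time point had a replicate term of its own, 28 members were called, 23 lower and 5 higher, where 26.9% of all loci were. DESeq2 called 11 (13.8% of all loci), scaling by library size alone gave 20 (12.1%) and no filter on low counts gave 1 (1.68% of the loci then tested).

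Among families in anterior fragments at 0 dpb, the U6 ring and the nucleolar proteins had the lowest fitted medians and the SR proteins the highest. By replicate the order differed. In replicate 1 the Hnrnp median was 0.31 and the SR median 0.03. In replicate 2 the Prpf median was -0.64 and that of the nucleolar proteins -0.56. The medians of Hnrnp, the other Rbm loci and the other Lsm loci changed sign between replicates. All 6 loci of Lsm3, Lsm6 and Lsm7 had a log2 fold change below 0 (-1.23 to -0.52, median -0.78, 1 called lower), as had all 8 loci of Rbm13, Rbm19, Rbm28 and Rbm34L (-1.61 to -0.05, median -0.78, none called). The medians were -0.28 for Snrp and for Prpf, -0.14 for Sf3, -0.19 for the other Rbm loci, -0.01 for Hnrnp and -0.06 for the other Lsm loci, against -0.01 over all loci. For the 27 SR loci the median was 0.13, with 19 above 0 and 1 called, Sfrs17a, lower. Of all 130 members 47 lay above 0, against 49.4% of all loci, and 32 had both anterior libraries below both controls, against 20.0% of all loci. Scaling by library size alone moved the median of all loci to -0.44 and that of the SR loci to -0.30, with 4 of 27 above 0. Relative to all loci the SR median was 0.14 with that scaling and 0.15 with TMM, and the median of the U6 ring was -0.76 with either.

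The summed level of a family shows what the medians do not, since a few abundant loci carry most of the counts. The summed ratio of anterior fragment to control within replicate 1 and replicate 2 was 0.71 and 0.56 for the U6 ring and 0.57 and 0.74 for the nucleolar Rbm loci, below 1 in both. For all members it was 0.98 and 1.11, on either side of 1, while the median locus was lower. These sums are TMM-scaled. As a share of a library's counts, the members took 0.355 and 0.253% in anterior fragments against 0.416 and 0.354% in controls. That share was lower in both replicates, so the side of 1 depends on the scaling.

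**Figure D2:**
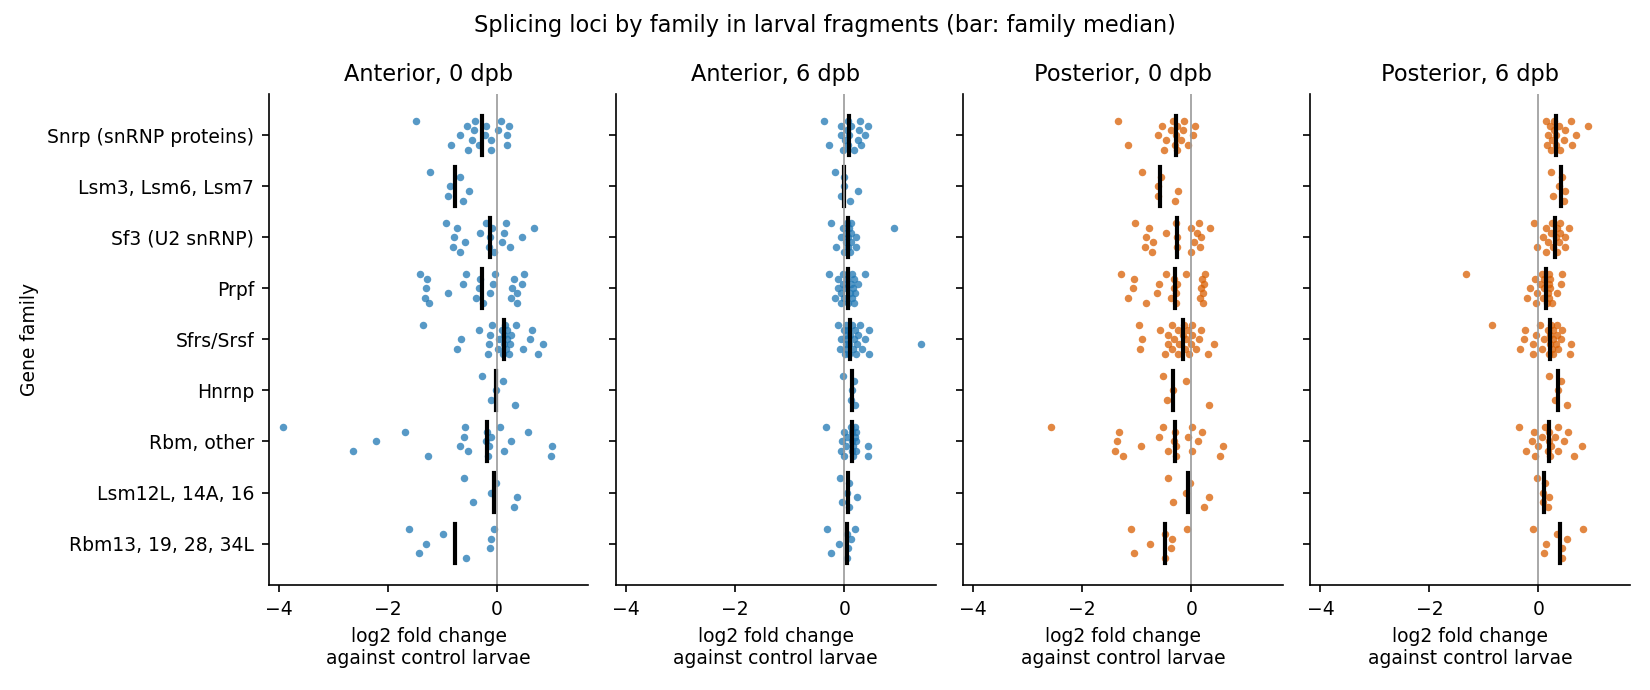
Each point is a splicing locus, placed by its log2 fold change against control larvae of the same time (horizontal axis) within its gene family (vertical axis, points spread for legibility), with a black bar at the family median. At 0 dpb all 6 loci of Lsm3, Lsm6 and Lsm7 and all 8 nucleolar Rbm loci lie left of 0 in both fragments, and in posterior fragments at 6 dpb all 18 Snrp loci lie right of 0.

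The highest log2 fold changes in anterior fragments at 0 dpb were those of Rbm35A, whose human counterpart ESRP1 directs epithelial splicing. The more abundant of its loci (XLOC_036847, scaffold 2690, bases 7138 to 28724, minus strand) had 85.3 and 119 CPM in controls, 176 and 231 in anterior and 139 and 168 in posterior fragments, and every fragment library exceeded both controls. Its anterior change was 0.99 ± 0.35 (edgeR adjusted p = 0.111), and that of the other locus (XLOC_050693, scaffold 4480) was 1.01 ± 0.33 (adjusted p = 0.0919), from 15.5 and 22.1 CPM in controls to 36.6 and 40.2. Neither was called in the main fit, and both were with the replicate term of each time point (adjusted p = 0.00242 and 0.00256) and in DESeq2 (adjusted p = 0.0451 and 0.0324). At 6 dpb anterior fragments read 154 and 96.0 CPM against 137 and 91.3 in controls at the first locus, a change of 0.12. Sfrs1L is named for the SR protein SRSF1. Its locus XLOC_022371 had 47.9 and 32.3 CPM in controls and 66.0 and 55.7 in anterior fragments, above both controls, and 47.9 and 38.7 in posterior fragments, which overlapped the controls (anterior change 0.64 ± 0.24, edgeR adjusted p = 0.132, and 0.0329 with the replicate term of each time point). Sf3B1 (XLOC_061924) had 245 and 296 CPM in controls and 335 and 411 in anterior fragments at 0 dpb, without overlap, a change of 0.46 ± 0.27 that was not called (adjusted p = 0.327). TMM factors at 0 dpb were 1.02 and 1.05 in controls, 0.886 and 0.673 in anterior and 0.922 and 0.691 in posterior fragments. Scaled by library size alone, anterior libraries of Sf3B1 and of this Sfrs1L locus overlapped the controls, as did posterior libraries of Rbm35A XLOC_036847. Anterior libraries of that Rbm35A locus stayed above both controls.

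In posterior fragments at 0 dpb no member was called in edgeR, where 0.0660% of all loci were. Of the 130 members, 14 had an unadjusted p under 0.05, all of them lower. Over all loci 1812 of 31798 were lower at that threshold, and 11.0% reached it in either direction. DESeq2 called 1 (Rbm17L XLOC_050231, lower), against 1.95% of the loci to which it gave an adjusted p, and the fit with a replicate term for each time point called 7, all lower, against 4.29% of all loci: both Rbm17L loci, Prpf18 XLOC_063309, Prpf4 XLOC_075732, Sfrs16, Sfrs17a and Sf3a2 XLOC_064095. The median member change was -0.29, against -0.03 over all loci, and the fitted family medians ran from -0.58 (the U6 ring) to -0.05 (the other Lsm loci), none above 0. By replicate, 2 families changed sign: the SR median was -0.36 in replicate 1 and 0.03 in replicate 2, and that of the other Lsm loci -0.30 and 0.19. Of 130 loci, 31 lay above 0, against 48.1% of all loci, and 34 had both posterior libraries below both controls, against 14.5%. Hnrnpk, which binds C-rich RNA, was among those above, with 117 and 115 CPM in controls and 142 and 148 in posterior fragments (0.32 ± 0.30, edgeR adjusted p = 0.760). Scaled by library size alone, its posterior libraries lay on either side of the controls. The posterior and the anterior comparison at 0 dpb share their 2 control libraries, so their like direction is not independent. With library size alone the posterior median of the members was -0.67 and that of all loci -0.41, which left the members 0.27 below.

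Set against each other at 0 dpb, anterior and posterior fragments gave no called member, where 5.29% of all loci were called, and 2 had an unadjusted p under 0.05, against 14.9%. The members' median, anterior minus posterior, was 0.12 and that of all loci 0.11. Within it 25 of 27 SR loci lay above 0 (median 0.29), against 57.2% of all loci, and 1 of 6 loci of the U6 ring (median -0.31).

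At 3 dpb no member was called in either fragment, where 2.26% of all loci were called in anterior and 0% in posterior fragments. None reached an unadjusted p under 0.05, against 5.73% and 2.77% of all loci. In anterior fragments 83 of 130 lay above 0 (52.7% of all loci) with a median of 0.07, which turned to -0.05 without anterior replicate 1. In posterior fragments 94 lay above 0 (48.6% of all loci) with a median of 0.14, and the Snrp loci had the highest family median, 0.37. Between the fragments no member was called (3.59% of all loci) or had an unadjusted p under 0.05 (11.4%).

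In posterior fragments at 6 dpb most members had a log2 fold change above 0, at small sizes, and few passed a test. No member was called in edgeR, where 0.00629% of all loci were, and 5 had an unadjusted p under 0.05, 4 higher and 1 lower, against 9.09% of all loci in either direction and 3.01% higher. Of the 130, 107 lay above 0, against 51.2% of all loci, and 35 had both posterior libraries above both controls, against 14.6%, while the median was 0.23 (0.01 over all loci). All 18 Snrp loci lay above 0 (0.14 to 0.92, median 0.32), as did all 6 of the U6 ring (median 0.41) and all 5 Hnrnp loci (median 0.36). The other medians were 0.30 for Sf3, 0.39 for the nucleolar Rbm loci, 0.22 for SR, 0.20 for the other Rbm loci, 0.14 for Prpf and 0.10 for the other Lsm loci.

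The median of all members was 0.24 in replicate 1 and 0.15 in replicate 2, and that of most families was above 0 in both: 0.34 and 0.20 for Sf3, 0.14 and 0.12 for Prpf, 0.21 and 0.16 for SR and 0.19 and 0.61 for Hnrnp. For the other Rbm loci it was -0.01 and 0.21. The replicates lay further apart in other families. The Snrp median was 0.71 in replicate 1 and 0.10 in replicate 2, that of the nucleolar Rbm loci 0.94 and 0.01, and that of the U6 ring 0.53 and 0.26. As summed levels, the posterior Snrp loci reached 1.53 and 1.06 of their control and the U6 ring 1.43 and 1.26. In anterior fragments at 6 dpb the summed Snrp ratio was 1.20 and 0.97, on either side of 1.

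**Figure D3:**
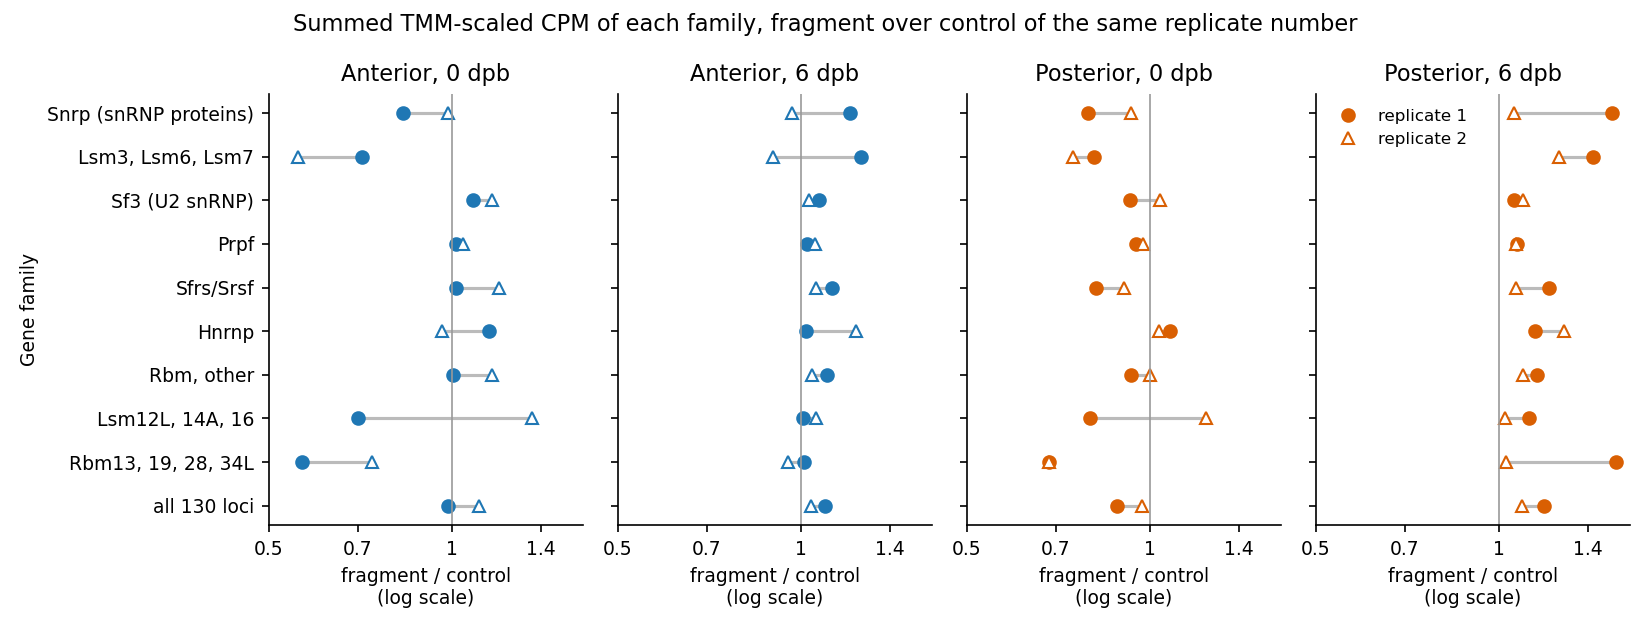
Each row is a gene family and each marker the ratio of its summed TMM-scaled CPM in a fragment library to that in the control library of the same replicate number and time (log axis, line at 1), as a filled circle for replicate 1 and an open triangle for replicate 2. The loci of Lsm3, Lsm6 and Lsm7 and the nucleolar Rbm loci lie below 1 in both replicates at 0 dpb, and the Snrp ratio in posterior fragments at 6 dpb is 1.53 in replicate 1 and 1.06 in replicate 2.

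SnrpF, a member of the Sm ring around the U1, U2, U4 and U5 RNAs, had the highest log2 fold change of the members in posterior fragments at 6 dpb. Its locus XLOC_023768 (scaffold 17994, bases 6636 to 12467, minus strand) had 8.64 and 4.71 CPM in controls and 18.7 and 7.64 in posterior fragments at 6 dpb, higher within each replicate number but with overlap between the groups. The change was 0.92 ± 0.29 (edgeR adjusted p = 0.301, and 0.0430 with the replicate term of each time point), and the other SnrpF loci gave 0.70 and 0.62. That fit called 2 members at this time, the other being Prpf4 XLOC_075738, lower, against 4.40% of all loci, and DESeq2 called 1, that Prpf4 locus, against 2.07% of all loci. In anterior fragments at 6 dpb no member was called (2.19% of all loci) or had an unadjusted p under 0.05 (5.49%), and 94 of 130 lay above 0 (51.7% of all loci) with a median of 0.08.

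Loci of the MCM helicase of DNA replication were read beside this result. Of 11 loci, 9 had a log2 fold change above 0 and an unadjusted p under 0.05 in posterior fragments at 6 dpb, against 3.01% of all loci, with a median of 2.03 and none called. Their summed level was 207 and 157 CPM in posterior fragments against 102 and 60.8 in controls, and their part in the splicing result was not tested.

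The change from 0 to 6 dpb, as the difference of each fragment's change from its own control, gave no called member in either fragment, where 0.0189% of all loci were called in anterior and 0% in posterior fragments. Unadjusted p under 0.05 was reached by 13 members in anterior fragments, all above 0, against 9.66% of all loci, and by 18 in posterior fragments, 17 above 0 and 1 below, against 11.1%. In posterior fragments 109 of 130 members lay above 0 (50.0% of all loci) with a median of 0.50. DESeq2 called 1 in each fragment, Rbm17L XLOC_050231, against 0.928% (anterior) and 1.89% (posterior) of the loci to which it gave an adjusted p. With the replicate term of each time point, 2 were called in anterior (2.32% of all loci) and 6 in posterior fragments (5.37%), all rising. Rbm17L XLOC_050231 and Sfrs17a were called in both, and the posterior calls added Rbm17L XLOC_050234, Lsm6 XLOC_003698, Sfrs2 and SnrpF XLOC_023768. For Rbm17L XLOC_050231 the difference was 2.13 ± 0.44 in anterior and 1.82 ± 0.44 in posterior fragments (edgeR adjusted p = 0.229 and 0.284 in the main fit, 0.0250 and 0.0223 with that term). Uncut larvae themselves gave no called member from 0 to 3 dpb (0% of all loci) or from 3 to 6 dpb (0.0598%), with 2 and 3 at an unadjusted p under 0.05, against 2.51% and 5.58% of all loci.

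The only member called between fragments was another Prpf4 locus, at 6 dpb, where 4.33% of all loci were called. XLOC_075738 is a single-exon model with no strand (scaffold 8896, bases 8 to 2847) that ends just before the Prpf4 locus XLOC_075732. At 6 dpb it had 16.3 and 37.5 CPM in anterior and 6.50 and 11.4 in posterior fragments, with 17.4 and 26.3 in controls. The posterior libraries lay below all others of that time, and the anterior level exceeded the posterior by 1.51 ± 0.33 on the log2 scale (edgeR adjusted p = 0.0251). Against control the posterior change was -1.34 ± 0.33, called by DESeq2 (adjusted p = 0.0156) and with the replicate term of each time point (adjusted p = 0.0251), but not in the main fit (adjusted p = 0.219). The neighbouring Prpf4 locus gave 0.22 and that on scaffold 3013 gave 0.24 in posterior fragments against control at 6 dpb. The difference was 1.31 and 1.71 in the replicates and 1.28 to 1.77 with any of the 4 fragment libraries left out, where no call was left with a lone library in a group.

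Of 39 names with several loci, the loci of 28 had log2 fold changes of 1 sign in anterior fragments at 0 dpb, those of 33 in posterior fragments at 0 dpb and those of 28 in posterior fragments at 6 dpb. Of the 130 members 83 and 99 lay below 0 in the first 2 comparisons and 107 above 0 in the last. A shared sign alone therefore does not show that loci of a name change together. Prpf8, the central protein of U5, showed how loci can spread over an assembly: its 6 loci lay between -0.04 and 0.37 in anterior fragments at 0 dpb, none called. Only uniquely placed reads were counted, so the levels of near-identical copies are uncertain and loci of a name are not independent measurements.

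A difference between replicate numbers, and not between fragments, stood out once the values were seen. A Prpf39 locus (XLOC_078747, scaffold 9609, bases 25377 to 30891, plus strand), named for a U1-associated factor, ran from 107 to 139 CPM over the 9 libraries of replicate 1 and from 5.45 to 11.9 CPM over the 9 of replicate 2. The ranges were far apart in every group, cut or uncut, while fragments and controls of the same replicate number differed far less. They were not always close: in replicate 2 at 0 dpb the unscaled counts were 204 in control, 71 in anterior and 69 in posterior fragments. The other 3 Prpf39 loci did not show it: XLOC_002916 had 30.1 to 43.1 CPM in replicate 1 and 16.4 to 44.3 in replicate 2. Summed over all 4 loci, replicate 1 exceeded replicate 2 by 2.39 to 6.20 times. A less abundant Sfrs3 locus (XLOC_048983) was also more than 2-fold higher in replicate 1 in each of the 9 groups (1.39 to 2.78 against 0.0768 to 1.08 CPM). These 2 of 130 members compare with 3.08% of all loci that were more than 2-fold apart, in the same direction, in each of the 9 groups.

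A set of members lay inside others. Between the exons of 7 splicing loci lay 10 single-exon loci of the same name: 3 in Rbm25, 2 each in Snrp70, Sfrs6 and Rbm34L and 1 in Sf3B3, from 241 to 1890 bases long. Rbm25 is a regulator that in human cells binds exonic enhancers, and Snrp70 is the U1 protein that contacts the SR proteins. At 0 dpb the Rbm25 inner loci were all but empty in anterior fragments. XLOC_068454 (scaffold 7295, bases 37492 to 37922) had 19 and 19 counts in controls, 3 and 2 in anterior and 8 and 5 in posterior fragments. XLOC_024021 (scaffold 18090, bases 15862 to 16321) had 8 and 11 counts in controls and 1 and 0 in anterior fragments, and XLOC_068452 (scaffold 7295) had 26 and 14 in controls, 5 and 2 in anterior and 6 and 1 in posterior fragments. At XLOC_024021 posterior fragments had 0 and 5 counts. The libraries differ in depth, and few counts were not confined to cut larvae: in uncut larvae at 3 dpb replicate 2 had 12 counts at XLOC_068454, 7 at XLOC_024021 and 7 at XLOC_068452, where replicate 1 had 126, 85 and 100. At 6 dpb the scaled level of XLOC_068454 was 2.40 and 0.942 CPM in controls, 2.11 and 1.43 in anterior and 1.79 and 1.80 in posterior fragments.

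The hosts of the Rbm25 and Snrp70 inner loci had changes nearer to 0. The Rbm25 hosts changed by -0.60 and -0.54 in anterior fragments at 0 dpb, and the hosts of Snrp70, whose inner loci changed by -1.50 and -0.69, changed by 0.21 and 0.18. Other inner loci went the other way in that comparison. Those of Rbm34L, at -0.10 and -0.05, lay above their host at -0.56, and Sfrs6 XLOC_031042, at 0.35, lay above its host at 0.23. These 3 had the highest mean counts of the 10 inner loci (99, 105 and 350). As a summed level, the 10 inner loci held 8.54 and 7.68% of the level of their hosts in controls at 0 dpb, 6.41 and 8.83% in anterior and 5.16 and 6.59% in posterior fragments, so that the anterior libraries lay on either side of the controls. Over the 10 inner loci 7 lay below their host in anterior fragments at 0 dpb (median difference -0.88, or -0.79 with the 2 loci at or under 3 counts a library set to that floor) and 8 in posterior fragments (median -0.92). At 6 dpb 3 of 10 lay below in either fragment, and at 3 dpb 3 in anterior and 7 in posterior fragments. Of 580 inner single-exon loci in 484 other host loci, at 0 dpb 49.0% lay below their host in the anterior comparison and 55.0% in the posterior one, with median differences of 0.02 and -0.08. The 10 loci were picked out after their values were seen, the Rbm25 ones rest on few counts, and none was called in the main fit. With the replicate term of each time point, XLOC_068452 and XLOC_068454 of Rbm25 and XLOC_023560 of Snrp70 were called lower in anterior fragments at 0 dpb. That fit called 26.9% of all loci in this comparison, in either direction, so the share of the 10 inner loci called was near the background.

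**Figure D4:**
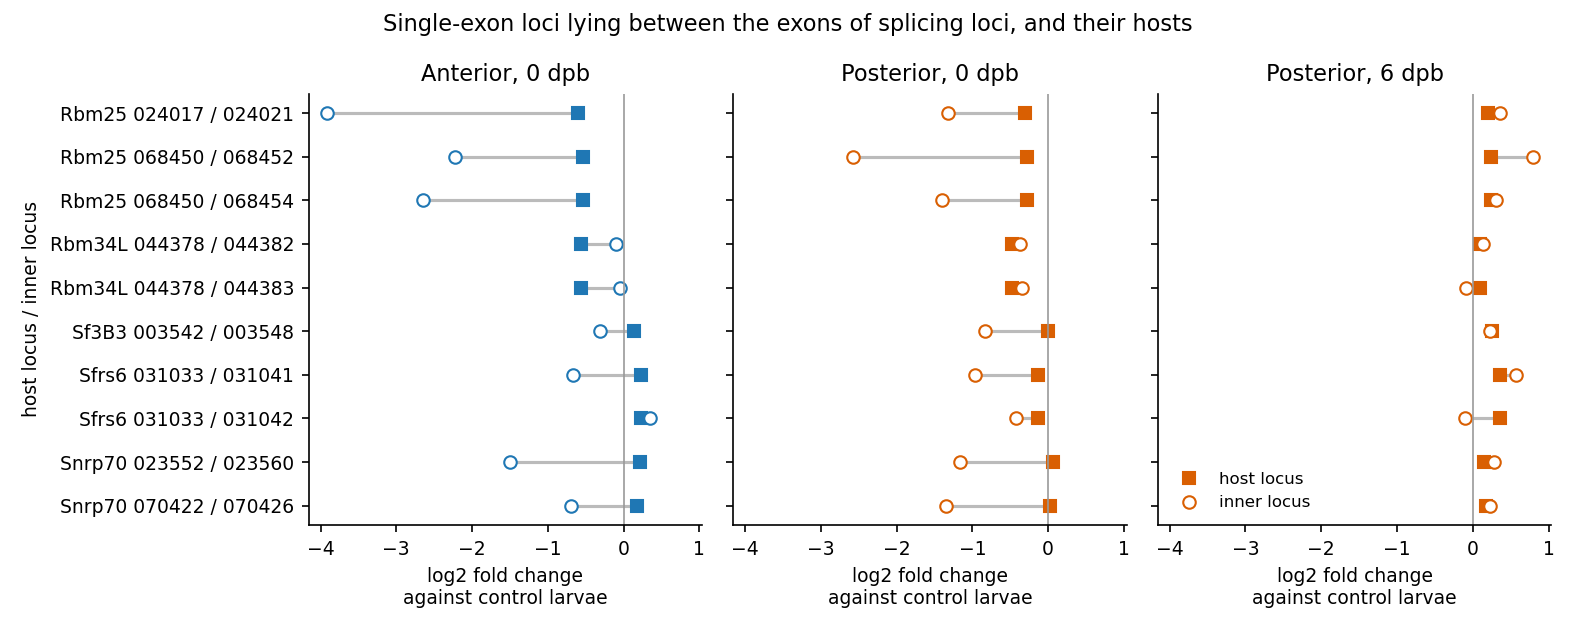
Each row is a single-exon locus lying between the exons of a splicing locus of the same name, with an open circle at the log2 fold change of the inner locus and a filled square at that of its host, against control larvae. At 0 dpb 7 of 10 inner loci in anterior and 8 of 10 in posterior fragments lie left of their host, and 3 of 10 in posterior fragments at 6 dpb; the 2 Rbm25 loci at -3.92 and -2.64 in anterior fragments have 0 to 3 counts a library there, so their fitted change is no bound.

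Other genes of splicing, listed by name outside the families (84 loci under 47 names), had medians of -0.32 and -0.20 in anterior and posterior fragments at 0 dpb and 0.05 in posterior fragments at 6 dpb. In anterior fragments at 0 dpb 5 of the 84 were called, all lower, where 4.76% of all loci were called lower, so this share too was near the background. Smn1 (XLOC_037871), which loads Sm proteins onto snRNAs, fell from 3.76 and 3.05 CPM in controls to 1.56 and 0.998 (-1.46 ± 0.34, edgeR adjusted p = 0.0270). Dbr1 (XLOC_001269), the enzyme that opens intron lariats, fell from 4.39 and 4.32 CPM to 1.56 and 1.61 (-1.45 ± 0.35, adjusted p = 0.0302). Rnf113a (XLOC_002487), a spliceosomal ubiquitin ligase, fell from 3.95 and 6.14 CPM to 1.82 and 1.61 (-1.64 ± 0.44, adjusted p = 0.0480). Ribosome biogenesis genes (62 loci) had medians of -0.63, -0.41 and 0.64 in the same 3 comparisons, with 6 called lower in the first.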

How the data were processed

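RNA was sequenced from 18 pools of Patiria miniata larvae or larval fragments. Reads were placed with TopHat2 2.0.12 on the P. miniata v1.0 assembly, loci were assembled with Cufflinks 2.2.1 and read counts per locus were made with HTSeq 0.6.1p1, per the labels and the study's methods. The count files are used here as the authors deposited them. Only reads placed uniquely on a locus were counted, and the strand setting is not given in the sources used here. The authors' table also holds 6 columns of their own fold changes, which were not used.

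Loci over 3 CPM in at least 2 libraries (31798) were fitted in edgeR 4.0.16 (R 4.3.3) with TMM factors, a quasi-likelihood F test, with a term for each of 9 groups and a block on replicate number. Same-numbered libraries deviated together from their group means (r 0.742 to 0.916 over 9 pairs within a time point, 0.179 to 0.675 over 27 pairs across time points). The pairing was thus closer within a time point, while the main fit holds 1 replicate term over all time points. Its common dispersion was 0.146, against 0.0475 with a replicate term for each time point and 0.341 with no replicate term. The standard error is the log2 fold change divided by the square root of F. Values per replicate use log2 CPM with a prior count of 2. Alternatives were DESeq2 1.42.0, other scalings, no filter, no block, a block within each time point, a fit for each time point, each library left out, 1 locus per name and members that overlap no other locus.

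Named loci were, in each comparison between groups of a time point, up to 8 called rises and 8 called falls with 1 direction in both replicates, the 3 loci of each family with the highest mean CPM, and up to 3 called rises and falls among other splicing genes. Other loci, the inner loci among them, were chosen after their values were seen. Members and lists were chosen with earlier results of these data known.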

Additional observations from a re-analysis of the deposited data

Results flagged for a closer look

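The Prpf4 locus XLOC_075738 differed between the 2 fragments at 6 dpb in a test of the difference itself: the anterior level exceeded the posterior by 1.51 on the log2 scale (SE 0.33, edgeR quasi-likelihood test, adjusted p = 0.0251), in both replicates (1.31 and 1.71). It is a single-exon model without a strand. With any of the 4 fragment libraries left out, which leaves a group with 1 library, the difference was 1.28 to 1.77 and was not called.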

How the results depend on the processing

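The 6 calls in anterior fragments at 0 dpb became 0 with no replicate block, 28 with a replicate block within each time point (26.9%), 20 with library size alone (12.1% of all loci), 1 with no filter on low counts (1.68%), 11 in DESeq2 (13.8%) and 3 with 1 locus per name, and ranged from 0 to 2 with a library left out. A library left out leaves a group with 1, assumed to vary like the others. Whether a lost call there came from the smaller design or from the library left out was not tested. The block within each time point gave 7 calls in posterior fragments at 0 dpb, 2 at 6 dpb, and 2 (anterior) and 6 (posterior) for the change between those times, where DESeq2 gave 1 each and the main setting 0. For controls across time points that block could not give a value. The 1 call between fragments at 6 dpb became 0 with no replicate block and 0 to 0 with a library left out.

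Library size alone moved the members' median log2 fold change to -0.57 (anterior, 0 dpb), -0.67, 0.051 and 0.37 (posterior, 0, 3 and 6 dpb) and, between fragments, to 0.070 at 0 dpb and -0.29 at 6 dpb. With 1 locus per name the anterior median at 0 dpb was -0.21. Between fragments at 0 dpb it was 0.13 with DESeq2 size factors and in DESeq2, 0.077 with no filter, 0.093 with a fit per time point, and 0.11 with 1 locus per name or without overlapping members. At 6 dpb it was -0.12 with DESeq2 size factors and in DESeq2. With a library left out it ranged from -0.21 to -0.15 (anterior, 0 dpb), -0.046 to 0.16 (anterior, 3 dpb), 0.11 to 0.18 and 0.19 to 0.31 (posterior, 3 and 6 dpb), and between fragments from 0.086 to 0.17, -0.19 to 0.0050 and -0.22 to -0.12 at 0, 3 and 6 dpb.

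Each group held 2 libraries, which limits every call.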
